A study of Mus musculus with 9 samples.

Results

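The NLRP genes that oocytes express beside Nlrp5 were examined in mouse eggs arrested at metaphase II, ready for fertilization. The 10 genes were taken by symbol from a list of reproductive Nlrp paralogues, Nlrp2, Nlrp4a, Nlrp4b, Nlrp4c, Nlrp4e, Nlrp4f, Nlrp9a, Nlrp9b, Nlrp9c and Nlrp14, and all 10 were among the 22526 genes of the expression table. The study compared 3 libraries from a group given nicotinamide mononucleotide (NMN), from which cells make NAD, with 3 libraries from an aged group and 3 from a young group. All libraries came from ICR mice, an outbred stock, and were made by full-length amplification of cDNA primed from the poly(A) tail. The labels give neither the age in weeks of any group, nor the age or dose of the NMN mice, nor how many oocytes or mice went into a library. The differences below are therefore set against the spread between libraries, which may be technical, and fewer oocytes and less RNA per oocyte cannot be told apart. Levels are in FPKM, fragments normalised for transcript length and for the mapped total of the library. Being per length, they are set side by side between genes. Whether all messages were primed equally well from the poly(A) tail was not tested.

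NLRP proteins carry an N-terminal pyrin domain, a central nucleotide-binding NACHT domain and C-terminal leucine-rich repeats. Some relatives, such as NLRP3, assemble inflammasomes in immune cells, whereas a reproductive branch is made in the growing oocyte, stored, and used by the early embryo after fertilization. In the mouse this branch was enlarged by gene duplication, above all in the Nlrp4 and Nlrp9 groups. Nlrp5, also called Mater, is the founding maternal effect gene of the branch and a core member of the subcortical maternal complex, a protein assembly beneath the egg membrane. Nlrp4f and Nlrp2 have both been linked to that complex in mice, and Nlrp14 is needed by the mouse mother for the early development of her embryos.

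Several of the 10 genes are copies of each other, so their sequences were compared before their levels. In the GENCODE M21 coding sequences, Nlrp4c and Nlrp4e were the closest pair, with 93.9% of 2934 aligned bases identical. The 3 Nlrp9 genes were 82.3% to 87.4% identical to each other, and Nlrp9a and Nlrp9c were the closest of them. Nlrp4a was 86.3% identical to Nlrp4c and 83.6% to Nlrp4f, while Nlrp4b stood furthest off among the Nlrp4 genes, at 77.8% to 79.0%. Nlrp2 and Nlrp14 had no close copy, with at most 59.7% and 60.8% identity to another gene of the branch, Nlrp5 included. The start of the coding sequence is printed as an example, without Nlrp4b. It does not show every distance, since Nlrp4e and Nlrp4a differ there from Nlrp4c by almost the same number of bases. The first 90 coding bases of 4 Nlrp4 genes are given 5′ to 3′, and capitals mark the bases that differ from Nlrp4c, of which Nlrp4e has 6, Nlrp4a 7 and Nlrp4f 15.
Nlrp4c: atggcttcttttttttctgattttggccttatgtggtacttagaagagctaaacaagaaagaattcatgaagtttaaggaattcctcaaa
Nlrp4e: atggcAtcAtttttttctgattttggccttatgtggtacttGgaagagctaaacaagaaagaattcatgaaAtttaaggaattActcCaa
Nlrp4a: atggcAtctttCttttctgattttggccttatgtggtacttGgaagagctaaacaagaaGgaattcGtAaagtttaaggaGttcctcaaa
Nlrp4f: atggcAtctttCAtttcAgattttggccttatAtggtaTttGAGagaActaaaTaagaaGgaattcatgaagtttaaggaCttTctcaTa

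The same stretch of the 3 Nlrp9 genes has capitals where a base differs from Nlrp9a, at 10 positions in Nlrp9c and 15 in Nlrp9b.
Nlrp9a: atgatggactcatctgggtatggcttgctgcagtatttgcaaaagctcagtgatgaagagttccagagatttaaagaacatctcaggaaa
Nlrp9c: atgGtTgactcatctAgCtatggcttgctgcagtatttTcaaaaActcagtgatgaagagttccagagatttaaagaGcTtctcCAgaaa
Nlrp9b: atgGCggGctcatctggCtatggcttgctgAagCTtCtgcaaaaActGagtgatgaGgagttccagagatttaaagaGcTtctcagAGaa

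How far a copy can blur a level depends on how much of its transcript is its own. Of all 50-base words in the annotated transcripts, 100% were unique to the gene for Nlrp14 and Nlrp4b, 99.2% for Nlrp2, 96.9% for Nlrp4a, 95.01% for Nlrp9c, 93.8% for Nlrp9b, 93.5% for Nlrp9a and 92.9% for Nlrp4f. The 2 lowest were Nlrp4c with 88.1% and Nlrp4e with 63.1%. At 100 bases, 9 of the 10 genes had at least 98.6% unique words and Nlrp4e had 88.5%. The words that Nlrp4e shares lie mostly in 5 unprocessed pseudogenes, Gm16443, Gm8486, Gm8685, Gm8728 and Gm4541, each of which holds 26.3% to 31.0% of all Nlrp4e words of 50 bases. These pseudogenes were at 0 to 2.03 FPKM in all 9 libraries. Another relative was itself abundant. Nlrp4g, a transcribed pseudogene that is not among the 10, had 256 to 761 FPKM and shared 4.63% of the 50-base words of Nlrp4f. The submitters' processing notes name RSEM, which divides reads that fit several genes by an estimate, and the Nlrp4e level and, less so, the Nlrp4c level are uncertain to that extent.

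**Figure D1:**
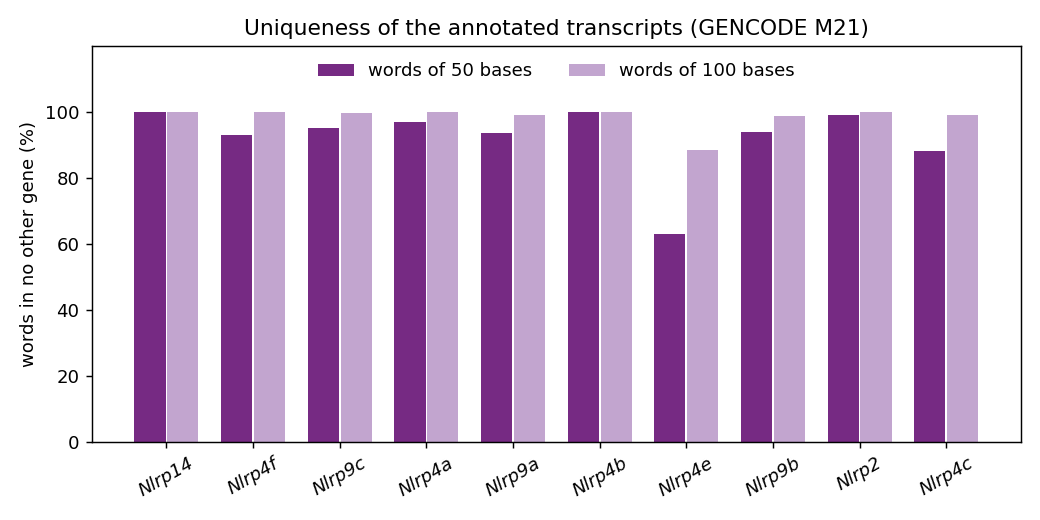
Share of each gene's transcript words that occur in no other annotated gene, as bars in percent on a scale from 0, for words of 50 and of 100 bases. Nlrp4e stands apart at 63.1% and 88.5%, and the other 9 genes are at 88.1% or more for the short words.

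On the mouse genome 9 of the 10 genes lie on chromosome 7 and Nlrp4f lies on chromosome 13. In the GENCODE M21 gene order, Nlrp9c, Nlrp4a and Nlrp9a are consecutive protein-coding genes, and Nlrp4e is the direct neighbour of Nlrp5. Nlrp4f has the olfactory receptor gene Olfr466 beside it, and Nlrp2 and Nlrp4b have the vomeronasal receptor genes Vmn1r57 and Vmn1r70. RefSeq promoter windows of build GRCm38.p6, from 250 bases before to 50 bases after a transcript start, were matched by symbol for 9 of the 10 genes, in 11 windows. Only the first window of each gene was aligned. Nlrp9c and Nlrp9a were 96.4% identical over 253 aligned bases, and Nlrp4c and Nlrp4b were 78.5% identical over 260. No other pair of first windows exceeded 63.5%. The second windows of Nlrp4a and Nlrp4b were not aligned. That of Nlrp4a holds the bases CCAATcacatgg, as Nlrp4c and Nlrp4b do, and its likeness to them was not measured. The 4 promoters below are shown because they form the closest pairs among the first windows. Each line gives the 250 bases before the start, 5′ to 3′ in the direction of the gene, with every CCAAT, or ATTGG on the other strand, in capitals. Nlrp9c lies at chr7:26403701-26403950 on the minus strand, Nlrp9a at chr7:26534773-26535022 on the plus strand, Nlrp4c at chr7:6044911-6045160 on the plus strand, and Nlrp4b at chr7:10687543-10687792 on the plus strand.
Nlrp9c: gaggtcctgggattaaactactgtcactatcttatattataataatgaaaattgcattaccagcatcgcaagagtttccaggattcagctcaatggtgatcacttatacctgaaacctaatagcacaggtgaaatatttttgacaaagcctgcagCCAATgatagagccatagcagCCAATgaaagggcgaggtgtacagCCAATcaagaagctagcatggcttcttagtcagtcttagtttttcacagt
Nlrp9a: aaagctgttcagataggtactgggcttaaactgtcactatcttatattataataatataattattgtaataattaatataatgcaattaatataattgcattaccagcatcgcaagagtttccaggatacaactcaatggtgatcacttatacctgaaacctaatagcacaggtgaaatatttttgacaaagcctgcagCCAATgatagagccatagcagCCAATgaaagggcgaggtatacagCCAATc
Nlrp4c: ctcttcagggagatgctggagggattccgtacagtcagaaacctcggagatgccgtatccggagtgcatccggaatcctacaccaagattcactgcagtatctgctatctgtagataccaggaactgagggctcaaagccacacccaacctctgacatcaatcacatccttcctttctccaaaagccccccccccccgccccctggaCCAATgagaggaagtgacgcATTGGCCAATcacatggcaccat
Nlrp4b: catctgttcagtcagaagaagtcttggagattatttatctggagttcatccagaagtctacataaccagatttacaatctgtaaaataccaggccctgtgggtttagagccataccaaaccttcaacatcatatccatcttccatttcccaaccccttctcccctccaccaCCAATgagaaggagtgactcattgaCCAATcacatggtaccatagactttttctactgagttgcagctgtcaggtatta

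The CCAAT pentamer was chosen after these sequences had been seen, and it occurred in 8 of the 11 windows, which belong to 7 of the 9 genes, against 37.4% of all 32841 promoter windows. These windows are not independent, since those of Nlrp4b overlap and those of Nlrp9a and Nlrp9c are near copies. The same CCAAT is thus counted more than once. The E-box CANNTG was in 10 of the 11 windows, of 8 genes, against 72.3% of all windows. TATAAA was in 1 window, that of Nlrp9b, against 13.6% of all windows. TAATTG, a word bound by the oocyte homeodomain factor NOBOX, was in 2 windows, those of Nlrp9a and Nlrp9b, against 8.002% of all windows. Each word was searched on both strands. A match of letters is a description of the window and not of binding.

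The 10 genes spanned a wide range of levels in these eggs, as the plot of FPKM by library shows. Nlrp14 was the highest, at a mean of 732 FPKM over the 9 libraries and rank 50 of the 22526 genes, which is 5.47 times the 134 FPKM of Nlrp5. Nlrp4f followed at 475 FPKM and rank 80. Nlrp9c averaged 220 and Nlrp4a 218 FPKM, and then came Nlrp9a at 155, Nlrp4b at 147, Nlrp4e at 132 and Nlrp9b at 92.1 FPKM. Nlrp2 was lower, at 42.7 FPKM and rank 1117, and Nlrp4c was the lowest, at 6.81 FPKM and rank 4109. In that order, the ranges of neighbouring genes over the 9 libraries overlapped except between Nlrp4f and Nlrp9c, between Nlrp9b and Nlrp2, and between Nlrp2 and Nlrp4c. An order can still hold within each library where ranges overlap. Nlrp4a was above Nlrp9a in every library, whereas Nlrp9c and Nlrp4a changed order between libraries. The closest coding pair thus had very different levels, since Nlrp4e was 19.4 times as high as Nlrp4c, whereas Nlrp9c was 1.42 times Nlrp9a and 2.39 times Nlrp9b.

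**Figure D2:**
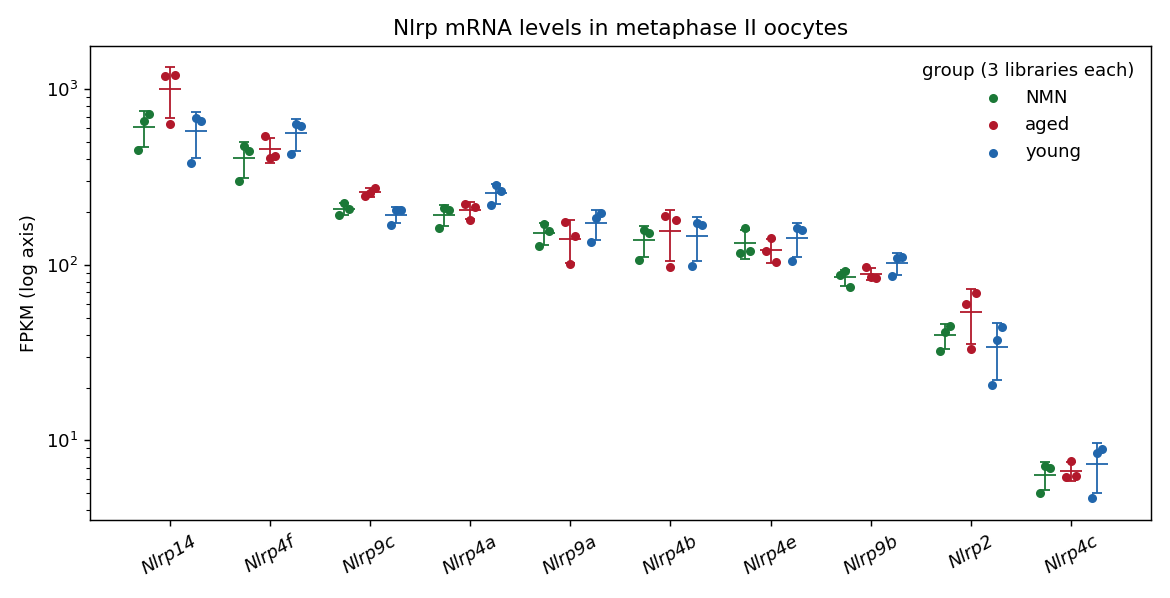
FPKM as deposited (log axis) of the 10 genes, ordered by their mean, with 1 point for each library and the group mean and SD as bars, for the NMN, aged and young groups of 3 libraries. Nlrp14 is the top gene and Nlrp4c the bottom one, and for most genes the 3 groups lie over each other.

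Together the 10 genes held 0.503% to 0.901% of all FPKM in a library. Their summed level was 1585, 2208 and 2137 FPKM in the NMN libraries, 2847, 1945 and 2703 FPKM in the aged libraries, and 1648, 2495 and 2435 FPKM in the young libraries. The sums averaged 1977 ± 341 FPKM with NMN, 2498 ± 484 FPKM in aged and 2193 ± 472 FPKM in young oocytes (SD, n = 3 each), and the 3 groups overlapped. The Nlrp4 genes summed to 691 to 1267 FPKM and the Nlrp9 genes to 390 to 519 FPKM per library. In each group a library was low for most of the genes. Young replicate 1 was the lowest young library for 10 of the 10 genes, NMN replicate 1 the lowest NMN library for 9, and aged replicate 2 the lowest aged library for 6.

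The files hold no read totals, but the steps between low FPKM values, which are whole reads within 0.02 for 96.6% to 97.8% of low values, put the libraries at 16.3 M to 19.3 M reads. At that depth the 10 genes rested on about 283 reads in the lowest case, for Nlrp4c, to about 67199 in the highest, for Nlrp14, so counting error is small beside the spread between libraries. A value of 0 would have allowed up to 0.0366 to 0.0573 FPKM for these genes, and none was at 0.

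Aged replicate 2 also stood apart over the whole table, at the far end of the first principal component, which held 41.0% of the variance of all tested genes. It was the one library with clear levels of genes typical of the cumulus and granulosa cells around an egg. Their summed level, over the 9 of 10 such markers in the table, was 20.7 FPKM there and 3.14 to 6.34 FPKM in the other 8 libraries, where most of the sum was Cyp19a1 and where Ptx3, Inha, Fst, Tnfaip6 and Foxl2 were listed at 0. Leukocyte markers, 4 of 8 in the table, summed to 0.382 to 2.52 FPKM in all 9 libraries, mostly as Cd68, and none of the 4 haemoglobin markers was in the table. The oocyte markers, such as Gdf9 and the zona pellucida genes, were high throughout, with 8 of 8 in the table and sums of 6408 to 8934 FPKM. Aged replicate 2 also differed in single oocyte markers. It was the highest library for Zp1, Zp2, Zp3, Oosp1 and Mos and the lowest for Gdf9. For Bmp15 and Zar1 it lay within the range of the others. Zp2 was at 197 FPKM there and at 29.1 to 83.5 FPKM in the other libraries. The part that the surrounding cells had in the values of aged replicate 2 was not tested, and several of the changes that it moves are also given without it.

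The first comparison asks what maternal age did to these messages. None of the 10 genes passed the test in aged against young oocytes (limma on scaled log2(FPKM + 1), Benjamini-Hochberg adjusted p below 0.05), where 2.17% of the 9168 tested genes passed. None of the 10 had an unadjusted p below 0.05 either, against 18.3% of all tested genes. The log2 change was positive for 4 of the 10, and its median over the 10 was -0.19 against -0.04 over all tested genes, or -0.10 against -0.005 without aged replicate 2. All 10 passed the filter on low values, 1 FPKM in at least 3 libraries.

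Nlrp14 had the widest difference in means. It had 1186, 635 and 1207 FPKM in the aged libraries, against 379, 690 and 658 FPKM in the young libraries. Aged replicates 1 and 3 were above every young library, while aged replicate 2 fell inside the young range. The means were 1009 ± 324 FPKM in aged and 576 ± 171 FPKM in young oocytes (SD, n = 3 each), a log2 change of 0.74 with a 95% interval of -0.05 to 1.54 and an adjusted p of 0.303 by limma. With 1 library left out, the log2 change ran from 0.44 without young replicate 1 to 1.13 without aged replicate 2, with adjusted p of 0.560 and 0.0906 in limma. When limma weighted each library by its fit to the rest, the change was 0.87 with an adjusted p of 0.0353, and Nlrp14 was then the only one of the 10 to pass. Under those weights 918 of all 9168 tested genes passed, so 1 of the 10 is near the background. Its adjusted p ranged from 0.0353 to 0.560 over the 15 alternative settings.

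Nlrp9c was the one gene whose aged and young libraries did not overlap. Its levels were 246, 256 and 275 FPKM in the aged libraries, against 169, 206 and 206 FPKM in the young libraries. Every aged library was above every young one, also for aged replicate 2, and also after scaling between libraries. The means were 259 ± 15 FPKM in aged and 194 ± 21 FPKM in young oocytes (SD, n = 3 each), a log2 change of 0.36 with a 95% interval of -0.04 to 0.76 and an adjusted p of 0.312 by limma. Leaving out 1 library gave 0.25 without young replicate 1 at the lowest and 0.45 without aged replicate 2 at the highest, with adjusted p of 0.543 and 0.229 in limma. Of all tested genes, 24.1% had aged and young groups that did not overlap, 11.6% with aged higher, and with FPKM as deposited 12.6% had aged higher. The count of 1 in 10 is near that background. The mouse Nlrp9b protein, made from its sister gene, is known from gut epithelium as part of a response to rotavirus.

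Nlrp2, which mouse mothers need for normal early development of their embryos, had 60.1, 33.2 and 68.9 FPKM in the aged libraries, against 20.7, 37.5 and 44.5 FPKM in the young libraries. As with Nlrp14, aged replicates 1 and 3 were the high libraries and aged replicate 2 lay among the young ones. Its log2 change was 0.59, with a 95% interval of -0.22 to 1.40 and an adjusted p of 0.426 by limma. The change was 0.25 without young replicate 1, 0.36 without aged replicate 3 and 0.98 without aged replicate 2, with adjusted p of 0.735, 0.659 and 0.140 in limma, within a range of 0.0799 to 0.735 over the alternative settings.

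Nlrp4f, the gene linked to the subcortical maternal complex, had 542, 407 and 420 FPKM in the aged libraries, against 430, 638 and 618 FPKM in the young libraries. Nlrp4a had 223, 181 and 213 FPKM in aged and 220, 286 and 263 FPKM in young oocytes. In both genes young replicate 1 was the low young library and lay within the aged range. The log2 changes were -0.35 for Nlrp4f and -0.37 for Nlrp4a, with adjusted p of 0.534 and 0.393 by limma. Without young replicate 1 they were -0.55 and -0.50, and without aged replicate 2, the lowest aged library of both genes, they were -0.19 and -0.20. Nlrp9a showed a like difference, with 177, 101 and 146 FPKM in aged and 135, 185 and 198 FPKM in young oocytes, a log2 change of -0.37 and an adjusted p of 0.533 by limma. Without aged replicate 2, the lowest aged library of Nlrp9a, its change was -0.06 with an adjusted p of 0.926 in limma, and without aged replicate 1 it was -0.60 with an adjusted p of 0.291.

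The remaining 4 genes differed less between age groups. Nlrp4b, the furthest of the Nlrp4 copies, had 190, 97.8 and 180 FPKM in aged and 98.8, 173 and 169 FPKM in young oocytes, with a log2 change of 0.01. Nlrp4e, whose knockdown in mouse embryos has been reported to halt their development, had 120, 142 and 104 FPKM in aged and 105, 162 and 158 FPKM in young oocytes, with a log2 change of -0.26. Nlrp9b had 97.2, 85.5 and 83.9 FPKM in aged and 86.0, 110 and 112 FPKM in young oocytes, with a log2 change of -0.25. The groups overlapped in each of these. Nlrp4c had 6.18, 7.65 and 6.26 FPKM in aged and 4.68, 8.46 and 8.90 FPKM in young oocytes, all 3 aged libraries within the young range. The adjusted p of these 4 genes was 0.537 to 0.988 by limma. Without aged replicate 2 the log2 change was 0.40 for Nlrp4b and -0.15 for Nlrp9b.

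**Figure D3:**
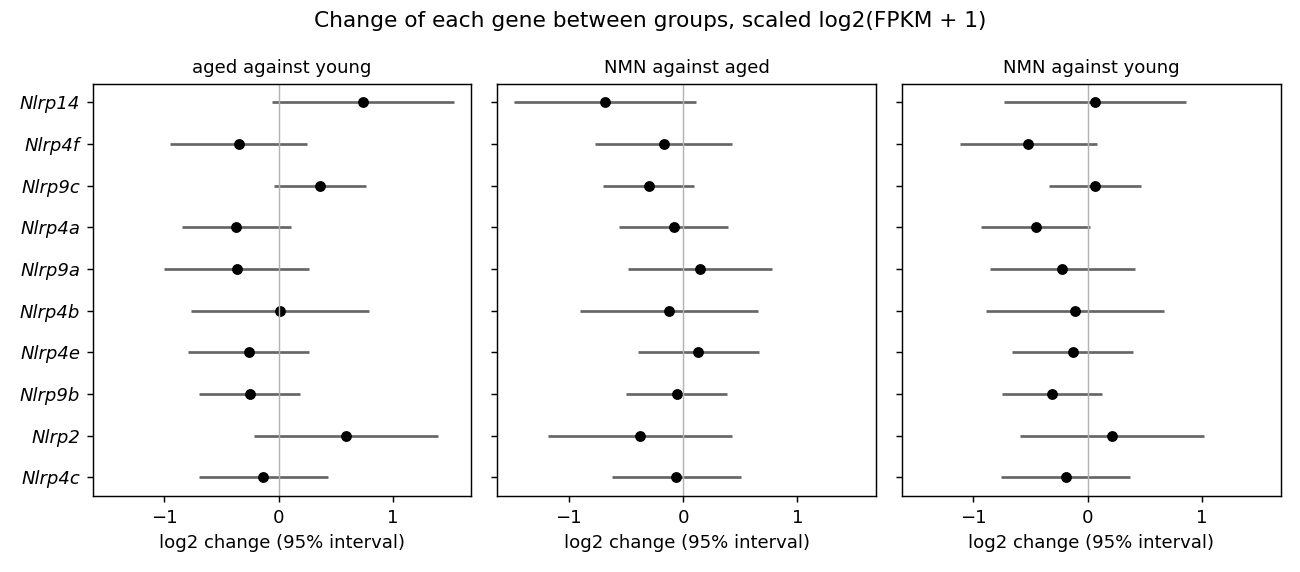
Log2 change of each gene in scaled log2(FPKM + 1) (points) with its 95% interval (lines), in 3 panels, with aged against young oocytes on the left, then NMN against aged, then NMN against young. Every interval crosses 0, and Nlrp14 has the point furthest from 0 in the first 2 panels, at 0.74 and -0.68.

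The second comparison asks whether the NMN group differed from the aged group in the same messages. It shares the aged libraries with the first, so the values are given side by side and are not independent. None of the 10 genes passed the test in NMN against aged oocytes, where 0.218% of all tested genes passed, and none had an unadjusted p below 0.05, against 11.4% of all tested genes. In this comparison 2 of the 10 had a positive log2 change, Nlrp4e and Nlrp9a, and the median over the 10 was -0.10 against 0.03 over all tested genes, or -0.30 against -0.02 without aged replicate 2. Nlrp14 had 453, 659 and 724 FPKM in the NMN libraries, against 1186, 635 and 1207 FPKM in the aged libraries. Aged replicate 2 again lay among the NMN libraries, and aged replicates 1 and 3 were above all 3. The log2 change was -0.68 with a 95% interval of -1.47 to 0.12 and an adjusted p of 0.508 by limma. With 1 library left out it ran from -1.08 without aged replicate 2 to -0.45 without NMN replicate 1, with adjusted p of 0.171 and 0.720 in limma. Over the 15 alternative settings the adjusted p was 0.0952 to 0.720 by limma.

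Nlrp9c had 192, 226 and 209 FPKM in the NMN libraries, against 246, 256 and 275 FPKM in the aged libraries. These deposited values did not overlap, as for 6.51% of tested genes with NMN lower, but after scaling between libraries NMN replicate 2 at 237 was above aged replicate 2 at 229. The log2 change was -0.30 with an adjusted p of 0.560 by limma. After scaling, none of the 10 genes had groups without overlap, against 16% of all tested genes. Nlrp2 had 32.5, 41.6 and 44.9 FPKM with NMN against 60.1, 33.2 and 68.9 FPKM in aged oocytes, with a log2 change of -0.38. That change was -0.78 without aged replicate 2 and -0.16 without aged replicate 3, with adjusted p of 0.274 and 0.917 in limma. The other 7 genes had log2 changes between -0.17 and 0.15 with adjusted p of 0.858 or more by limma, and every 95% interval held 0. The interval was widest for Nlrp4b, from -0.90 to 0.65, and narrowest for Nlrp9b, from -0.50 to 0.38.

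Between NMN and young oocytes none of the 10 genes passed, against 0.0764% of all tested genes, which is 7 genes, and 0 genes with the replicate number as a block. None of the 10 had an unadjusted p below 0.05, against 8.12% of all tested genes. Positive log2 changes were seen for 3 of the 10, and the median over the 10 was -0.16 against 0.01 over all tested genes. Nlrp14 differed little, with 453, 659 and 724 FPKM in NMN and 379, 690 and 658 FPKM in young oocytes, a log2 change of 0.06 with a 95% interval of -0.73 to 0.86. Nlrp4a had 163, 212 and 206 FPKM in NMN and 220, 286 and 263 FPKM in young oocytes. All 3 NMN libraries were below the young ones as deposited, as for 6.99% of tested genes, but after scaling NMN replicate 2 at 222 passed young replicate 1 at 219. For Nlrp4a the log2 change was -0.45 with an adjusted p of 0.623 by limma. Nlrp4f had 300, 478 and 445 FPKM in NMN and 430, 638 and 618 FPKM in young oocytes, with a log2 change of -0.52 and an adjusted p of 0.662 by limma. After scaling, none of the 10 genes had groups without overlap, against 16.5% of all tested genes. Within same-numbered pairs of NMN and young libraries, 4 of the 10 were lower with NMN in all 3 pairs after scaling, namely Nlrp4a, Nlrp4f, Nlrp9a and Nlrp9b, against 22% of all tested genes. No label pairs these libraries, and the count was made for this comparison and this direction only. A paired decrease is therefore not read from it. With the replicate number as a block, the adjusted p was 0.713 for Nlrp4a and 0.741 for Nlrp4f by limma. Without NMN replicate 1 the change was -0.31 for Nlrp4a and -0.29 for Nlrp4f.

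The remaining NMN values belong to 5 genes. Of these, Nlrp9b had the widest change against young oocytes, a log2 change of -0.31 with an adjusted p of 0.724 by limma. Nlrp9a had 128, 172 and 156 FPKM, Nlrp4b had 107, 157 and 151 FPKM, Nlrp4e had 117, 163 and 119 FPKM, and Nlrp9b had 88.0, 92.1 and 74.8 FPKM in the NMN libraries. Nlrp4c had 5.012, 7.114 and 6.999 FPKM there, the lowest of the 10 in this group as in the others. NMN replicate 1 was the lowest NMN library in 4 of these 5 genes, and Nlrp9b was the exception.

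Each gene was also taken as a share of the summed FPKM of the 10 in its library, a value that no scaling between libraries can change. These shares depend on each other, since they add to 100%. A higher share of Nlrp14 therefore leaves a smaller share for the other genes. Nlrp14 held 41.7%, 32.6% and 44.6% of the sum in the aged libraries, against 23.0%, 27.7% and 27.0% in the young libraries. Every aged library was above every young one, including aged replicate 2, and the means were 39.6% ± 6.2 in aged and 25.9% ± 2.5 in young oocytes (SD, n = 3 each). Nlrp14 was the only 1 of the 10 with aged higher and no overlap, against 4.18% of all tested genes set over the same sum. Nlrp4f held 19.0%, 20.9% and 15.5% in aged and 26.1%, 25.6% and 25.4% in young oocytes, again with no overlap. Nlrp4a and Nlrp9a were also lower in all aged libraries. Thus 3 of the 10 had a lower share with no overlap, against 17.6% of all tested genes. Tested genes outside the 10 are not part of that sum, so their percentages also follow how the sum itself differs between groups. They are not a like background for the 10, and no excess or lack is read from them.

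With NMN, the Nlrp14 share was 28.6%, 29.9% and 33.9%, and the Nlrp4f share was 18.9%, 21.6% and 20.8%. The NMN shares of Nlrp14 were above all young ones and overlapped the aged ones, where aged replicate 2 had 32.6%. Nlrp4a, Nlrp4b and Nlrp9a had a higher share in NMN than in aged oocytes with no overlap, against 20% of all tested genes. None of the 10 had a lower one, against 1.33%. For the reason given above, such percentages are not a like background here or against young oocytes. In NMN against young oocytes, Nlrp2 and Nlrp14 were higher with no overlap, against 6.08% of all tested genes, and Nlrp4a and Nlrp4f were lower, against 4.43%. The ratio of Nlrp14 to Nlrp4f, chosen after these values had been seen and given with no test, was 1.51, 1.38 and 1.63 in the NMN libraries, 2.19, 1.56 and 2.87 in the aged libraries and 0.881, 1.08 and 1.06 in the young libraries. The young libraries were the lowest on that ratio, and aged replicate 2 again lay within the NMN range.

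**Figure D4:**
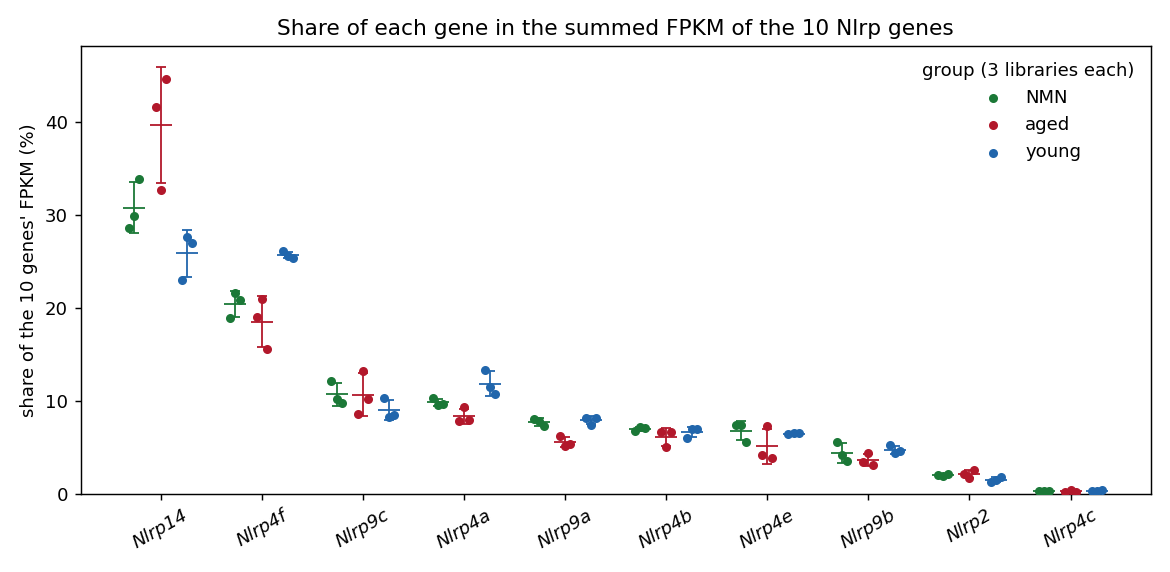
Share of each gene in the summed FPKM of the 10 genes (percent), with 1 point for each library and the group mean and SD as bars, for the NMN, aged and young groups of 3 libraries. The aged points of Nlrp14, from 32.6% to 44.6%, lie above its young points, from 23.0% to 27.7%, and the young points of Nlrp4f lie above its aged and NMN points.

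Across the 9 libraries the 10 genes went together to unequal degrees. Pearson's r between 2 of them, on scaled log2(FPKM + 1), was 0.10 to 0.96 over the 45 pairs, with a median of 0.61. These values describe libraries that share amplification, depth and group, and they carry no test. The highest were 0.96 for Nlrp2 with Nlrp14, 0.95 for Nlrp4a with Nlrp4f, and 0.91 for Nlrp9c with Nlrp14. The lowest was 0.10, for Nlrp4e with Nlrp14. Nlrp9a and Nlrp9c, with near-identical promoter windows, had r = 0.22, and the closest coding pair, Nlrp4c and Nlrp4e, had r = 0.83. Nlrp4c and Nlrp4e share 276 words of 50 bases, and the part of reads divided between them in that r was not tested. Nlrp4a lies between Nlrp9c and Nlrp9a on chromosome 7, with r = 0.18 to Nlrp9c and r = 0.87 to Nlrp9a.

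**Figure D5:**
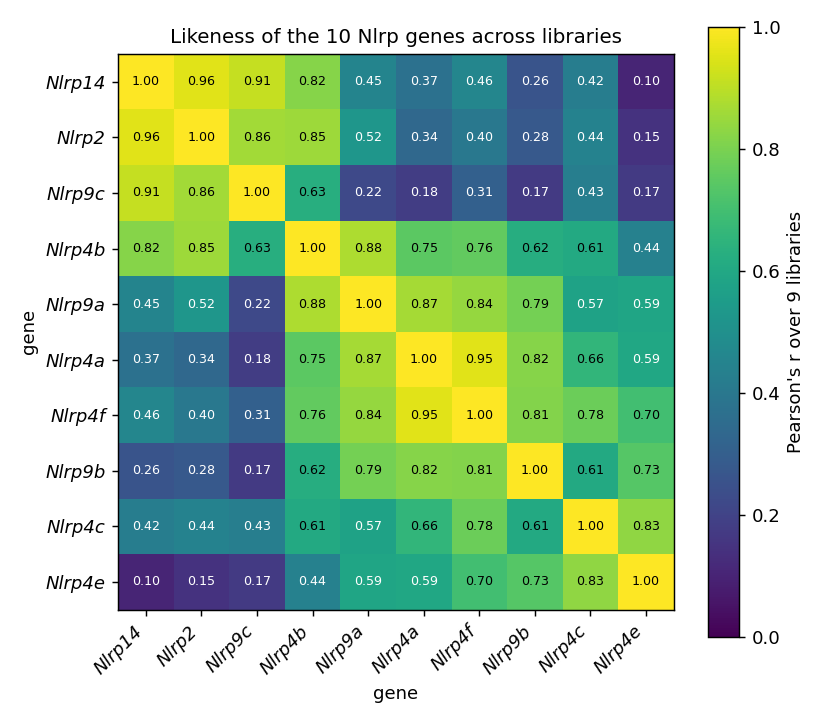
Pearson's r between each pair of the 10 genes over the 9 libraries, on scaled log2(FPKM + 1), as colours and numbers. Nlrp14, Nlrp2 and Nlrp9c form a block of 0.86 to 0.96, and Nlrp9a, Nlrp4a, Nlrp4f and Nlrp9b form another of 0.79 to 0.95.

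Among 7881 tested genes with a full name, the one most like each of the 10 over the 9 libraries was taken by the highest r. The highest of so many r values over 9 libraries is large for almost any gene. These partners are therefore a description with no test, and shared regulation was not tested. For Nlrp2 it was Nlrp14, with r = 0.96, and for Nlrp14 it was C2cd5, with r = 0.98, which was also the second nearest to Nlrp2. Nlrp4b was most like Bmp5 at 0.99, Nlrp9a like Atg14 at 0.99, Nlrp4f like the RNA-binding gene Elavl2 at 0.98, and Nlrp4a like Arpp19, an inhibitor of the phosphatase that opposes meiotic kinases, at 0.98. Nlrp9c was most like Npat at 0.97, Nlrp9b like the helicase gene Blm at 0.97, Nlrp4e like Tmem182 at 0.95 and Nlrp4c like Car9 at 0.94. The pseudogene Nlrp4g had r of 0.44 to 0.94 with the 10, the highest with Nlrp4b and 0.89 with Nlrp4f. It averaged 451 ± 166 FPKM with NMN, 512 ± 221 FPKM in aged and 626 ± 214 FPKM in young oocytes (SD, n = 3 each), and it passed the test in none of the 3 comparisons, with adjusted p of 0.693, 0.951 and 0.789 by limma in the order aged against young, then NMN against aged, then NMN against young.

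Genes that work beside this branch were read from 5 lists, and no gene of any list passed the test in any of the 3 comparisons. In the subcortical maternal complex list, 6 of 6 genes were in the table and 5 were tested. Zbed3 was the most abundant gene of the whole table, at 14489 ± 4514 FPKM in aged and 15864 ± 782 FPKM in young oocytes (SD, n = 3 each), a log2 change of -0.24 that turned to 0.12 without aged replicate 2. Ooep, a subunit of the complex with a KH domain, had 689, 1081 and 587 FPKM in aged and 498, 380 and 309 FPKM in young oocytes. All 3 aged libraries were above the young ones, the log2 change was 0.91, and the adjusted p was 0.142 by limma. Without aged replicate 2, its highest library, the change was 0.73 with an adjusted p of 0.225 in limma. Tle6, named because it shared with Ooep an unadjusted p below 0.05, had 122, 167 and 226 FPKM in aged and 102, 85.5 and 119 FPKM in young oocytes, a log2 change of 0.65 and an adjusted p of 0.185 by limma. Of all tested genes, 18.3% had such an unadjusted p in aged against young oocytes. After scaling, Ooep and Tle6, 2 of the 5 tested genes, had aged higher with no overlap, against 11.6% of all tested genes. These counts carry no test. Padi6, which the egg needs for its cytoplasmic lattices, had a log2 change of 0.09, or 0.23 without aged replicate 2. The median log2 change of the 5 tested genes was 0.30, against -0.19 for the 10 Nlrp genes and -0.04 over all tested genes, and without aged replicate 2 it was 0.46. Ooep in NMN against aged oocytes averaged 504 ± 190 FPKM and 785 ± 261 FPKM (SD, n = 3 each), with a log2 change of -0.65 and an adjusted p of 0.430 by limma.

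Most sensors of the immune branch were low in these eggs, but Nlrc4, at 11.6 FPKM over the 9 libraries, lay above Nlrp4c at 6.81 FPKM. Of 17 other genes of the wider NLR family, 14 were in the table and 2 passed the filter on low values. These were Nlrc4, the core of an inflammasome against bacteria, at 9.86 ± 2.69 FPKM with NMN, 11.6 ± 1.7 FPKM in aged and 13.5 ± 4.4 FPKM in young oocytes, and Naip1, of the Naip group whose products sense bacterial proteins together with NLRC4, at 4.14 ± 0.96, 4.48 ± 3.14 and 2.25 ± 0.53 FPKM in the same groups (SD, n = 3 each). Nod2 averaged 0.672 FPKM over the 9 libraries. Nlrp3, Nlrp6, Nlrp10 and Nlrp12 stayed at 0 to 0.0867 FPKM in every library. Of 10 inflammasome partners, 6 were in the table and 3 were tested. Txnip, which binds thioredoxin and has been reported to bind NLRP3, had 585 ± 86 FPKM with NMN, 581 ± 132 FPKM in aged and 526 ± 8 FPKM in young oocytes (SD, n = 3 each). The other 2 tested genes, Nek7 and Aim2, averaged 1.02 and 0.873 FPKM over the 9 libraries, and Casp1, the protease of the inflammasome, averaged 0.155 FPKM.

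A further list held 3 genes of maternal DNA methylation, taken because the NLRP14 protein is known to bind UHRF1, and 3 of 3 were tested. Dppa3, also called Stella, which keeps UHRF1 out of the egg nucleus, had 152, 297 and 145 FPKM in aged and 134, 83.3 and 56.5 FPKM in young oocytes. All 3 aged libraries were above the young ones, and the highest was aged replicate 2. For Dppa3 the log2 change was 1.06 with an adjusted p of 0.157 by limma, and without aged replicate 2 it was 0.81 with an adjusted p of 0.275 in limma. Uhrf1 averaged 106 ± 10 FPKM with NMN, 80.0 ± 21.1 FPKM in aged and 90.9 ± 21.3 FPKM in young oocytes, and Dnmt1, the maintenance methyltransferase, averaged 177 ± 17, 187 ± 51 and 140 ± 6 FPKM in the same groups (SD, n = 3 each). After scaling, Dppa3 and Dnmt1, 2 of the 3 genes, had aged higher than young with no overlap, against 11.6% of all tested genes. That count carries no test. Of 6 oocyte transcription factors, 6 were in the table and 4 were tested. Nobox averaged 38.1 ± 1.9 FPKM with NMN, 41.5 ± 5.0 FPKM in aged and 30.6 ± 4.7 FPKM in young oocytes (SD, n = 3 each), with a log2 change of 0.37 and an adjusted p of 0.302 by limma for aged against young. Lhx8 and Sohlh2 averaged 29.7 and 14.2 FPKM over the 9 libraries, with log2 changes of -0.16 and 0.15 for aged against young. Without aged replicate 2 these were 0.12 for Lhx8 and 0.71 for Sohlh2, with adjusted p of 0.876 and 0.248 in limma.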

How the data were processed

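The expression table was deposited by the authors under a name that speaks of raw counts, but its values are FPKM: they are not whole, and each library sums to a similar total. Build mm9, RSEM and Bowtie2 2.2.5 are named in the submitters' processing notes, and per the labels' protocols the libraries were Smart-seq2 libraries sequenced by the DNBseq route. Gene names came from GENCODE M21 on a later build, which matched 22487 of 22526 identifiers, so no gene coordinates are given. Promoters are RefSeq windows of GRCm38.p6.

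FPKM were divided by library sum and a trimmed-mean factor (30% of ratios and 5% of levels trimmed at each end) and tested as log2(FPKM + 1) in limma 3.58.1 (R 4.3.3), with 1 fit of group means over all 9 libraries, a variance trend and robust moderation. The test covered the 9168 genes that reached 1 FPKM in 3 or more libraries, with Benjamini-Hochberg adjustment over all of them and a threshold of 0.05. Fold changes are on the log2(FPKM + 1) scale and understate those of low genes. The scripts were tested on simulated data. The count test named in the plan was not used, since the table holds FPKM. No pair of libraries of 1 group agreed within sampling noise, with a chi-square per degree of freedom of 16.1 to 115.

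Replicate numbers come from the sample titles, with nothing said of a shared day or batch. Between same-numbered NMN and young libraries, the deviations from the group mean had r = 0.50, 0.12 and 0.14, and no label pairs them. The fit with the replicate number as a block covers all 9 libraries, the aged ones included. It is therefore not a paired test of the NMN and young libraries alone. For aged and young libraries r was -0.34, -0.27 and 0.31, and for NMN and aged libraries -0.37, -0.36 and 0.20. Libraries with unlike numbers were not compared, so whether a number marks a shared batch was not tested. The block was fitted for all 3 comparisons. Coding identity came from global alignments (Biopython 1.88) of the longest coding sequence of each gene, since no protein table was used here. All 10 genes are named, and of each other list the genes that passed, or else the 3 with the highest mean FPKM. The members, lists and tests were chosen with earlier results of these data known. Alternatives were another pseudocount, no filter, no scaling, library weights, the block, fits of 2 groups and each library left out.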

Additional observations from a re-analysis of the deposited data

How the results depend on the processing

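The count of the 10 genes that passed was 0 in all 3 comparisons under every alternative run but 1, library weights in aged against young oocytes, where it was 1 (Nlrp14). It was also 0 with each library left out in turn, and the replicate block, which changed no call among the 10, left it at 0. The background was less stable. In aged against young oocytes 199 genes passed, against 31 with no filter, 918 with library weights, 78 with the replicate block, 132 with only those 2 groups fitted and 22 to 217 with a library left out (108 without NMN replicate 3, 35 without aged replicate 3, 43, 22 and 26 without young replicates 1, 2 and 3). In NMN against aged oocytes 20 passed, against 9 with no filter, 162 with weights, 6 with those 2 groups and 5 to 26 with a library left out (10 and 12 without NMN replicates 1 and 3, 8 and 5 without aged replicates 1 and 3). In NMN against young oocytes 7 passed, against 1 with no filter, 3 with no scaling, 72 with weights, 0 with the replicate block, 17 with those 2 groups and 1 to 14 with a library left out (1 and 12 without NMN replicates 1 and 3, 1, 14 and 3 without aged replicates 1, 2 and 3, and 1 without any of the young ones). The cause was not tested.

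Of the log2 changes recomputed for the 10 genes, 421 kept their direction and their side of the threshold, 28 turned sign and 1 came to pass. With library weights, the change became 0.0275 for Nlrp4c and -0.0215 for Nlrp9a in NMN against aged, and -0.0046 for Nlrp9c in NMN against young oocytes. With a library left out, the log2 change ran from -0.27 to 0.40 for Nlrp4b and from -0.41 to 0.0137 for Nlrp4c in aged against young oocytes. In NMN against aged oocytes it ran from -0.27 to 0.0619 for Nlrp4a, -0.52 to 0.10 for Nlrp4b, -0.16 to 0.10 for Nlrp4c, -0.0556 to 0.24 for Nlrp4e, -0.34 to 0.0619 for Nlrp4f, -0.17 to 0.37 for Nlrp9a and -0.18 to 0.0540 for Nlrp9b. In NMN against young oocytes it ran from -0.23 to 0.28 for Nlrp14, -0.12 to 0.44 for Nlrp2, -0.39 to 0.0870 for Nlrp4b and -0.0499 to 0.14 for Nlrp9c. With 3 libraries a group the width of the intervals, not depth, limits what can be seen for these genes, apart from copies of Nlrp4e and Nlrp4c that share sequence.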
